A study of Arabidopsis thaliana with 20 samples.

Results

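Oleosins and caleosins are the coat proteins of oil bodies, the droplets in which seeds store triacylglycerol. The genes described here are the 8 oleosin genes of seeds and the caleosin genes *CLO1* and *CLO2*, 10 of the 33557 genes in the deposited table. They were chosen by gene identifier as known members of these families and not by their values, though earlier results of these data were known. Their levels were read in *Arabidopsis thaliana* seeds of *Δdella* and WT (Col-0) plated for 20 h on germination medium with 5 µM paclobutrazol (PAC) and 10 µM GA, with 5 µM PAC, with 0.7 mg/mL *PAO1* extract and 10 µM GA, with 0.7 mg/mL *PAO1* extract, or with no addition (MS). The *Δdella* seeds carry loss-of-function alleles of all 5 DELLA genes (rgl2-/- rga-/- gai-/- rgl1-/- rgl3-/-) in the same Col-0 background. PAC inhibits the synthesis of gibberellin (GA), DELLA proteins are repressors that GA signaling removes, and *PAO1* extract is bacteria-free medium in which the *Pseudomonas aeruginosa* strain PAO1 had grown. Each of the 10 groups had 2 biological replicates, which the authors pooled, so the table holds 1 FPKM value (a level scaled to transcript length and to the size of the library) per gene and group. With 1 value per group no SD could be computed and no test was made here, and a difference is described by its size only.

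An oleosin anchors in the oil body with a long hydrophobic hairpin and covers its surface with its flanking parts, which keeps droplets small and apart in the dry seed. Caleosins have a similar anchor with a calcium-binding domain, and seed caleosins have peroxygenase activity. These genes are transcribed during seed maturation together with those of storage proteins, under abscisic acid (ABA) signaling and B3-domain factors such as ABI3, and the stored oil is consumed after germination. *OLEO1* (AT4G25140), *OLEO2* (AT5G40420), *OLEO3* (AT5G51210), *OLEO4* (AT3G27660) and AT3G01570 encode oleosins of the seed group. AT3G18570, AT1G48990 and AT2G25890 belong to the group known from seeds and microspores. *CLO1* is AT4G26740 and *CLO2* is AT5G55240. The genes are spread over all 5 chromosomes, with 1 on chromosome 1 (AT1G48990), 1 on chromosome 2 (AT2G25890), 3 on chromosome 3 (*OLEO4*, AT3G01570 and AT3G18570), 2 on chromosome 4 (*OLEO1* and *CLO1*) and 3 on chromosome 5 (*OLEO2*, *OLEO3* and *CLO2*).

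As these genes share a known mode of control in the maturing seed, the 250 bases before the annotated start of 8 of them were searched on both strands for motifs named in that control. The RY core (CATGCA) is bound by B3-domain factors. The ABRE core (ACGTG) and the G-box (CACGTG) are bound by bZIP factors such as ABI5. Each G-box holds the ABRE core on both strands and therefore adds 2 ABRE matches. Matches of the RY core may also overlap each other, as in *OLEO4*. Of these 8 windows, 8 held an RY core, against 8.43% of the windows of 27443 protein-coding genes, and 3 held at least 2, against 1.66%. The ABRE core was in 6 of 8 windows, against 22.9% of all, and the G-box in 4 of 8, against 6.49%. These matches describe the letters in the windows, and binding was not measured. Exons of other genes cover 110 bases of the AT3G01570 window, all of them coding. They also cover 128 bases of the AT3G18570 window, 163 of the AT2G25890 window and 5 of the *CLO1* window. The windows of *OLEO1* and *OLEO3* carried the most matches. Those of *OLEO4* and *CLO2* held an RY core and no ABRE core. The following 3 windows, which lie outside annotated exons, show both kinds. They are from RefSeq, TAIR10.1, written 5′ to 3′ on the strand of the gene, with RY and ABRE cores in capitals. They lie at chr4:12900180-12900429 (*OLEO1*), chr5:20819818-20820067 (*OLEO3*) and chr5:22405646-22405895 (*CLO2*), all on the plus strand.
OLEO1: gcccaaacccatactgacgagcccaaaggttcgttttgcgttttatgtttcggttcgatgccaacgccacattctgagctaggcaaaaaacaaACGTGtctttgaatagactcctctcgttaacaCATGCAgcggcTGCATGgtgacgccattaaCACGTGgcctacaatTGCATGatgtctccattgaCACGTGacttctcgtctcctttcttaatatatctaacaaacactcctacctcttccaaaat
OLEO3: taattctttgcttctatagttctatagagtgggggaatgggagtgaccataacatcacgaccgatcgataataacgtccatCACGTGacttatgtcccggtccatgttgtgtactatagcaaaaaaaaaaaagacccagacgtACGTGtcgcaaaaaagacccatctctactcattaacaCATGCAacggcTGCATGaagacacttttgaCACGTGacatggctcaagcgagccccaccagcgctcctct
CLO2: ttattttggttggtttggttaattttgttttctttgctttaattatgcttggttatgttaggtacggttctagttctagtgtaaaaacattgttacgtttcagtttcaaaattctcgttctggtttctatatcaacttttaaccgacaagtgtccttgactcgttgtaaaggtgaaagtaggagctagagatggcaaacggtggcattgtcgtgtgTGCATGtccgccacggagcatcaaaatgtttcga

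Close to their starts, *CLO1* and *CLO2* shared the longest identical run of any of the 28 pairs of windows, 16 bases that include an RY core (gTGCATGtccgccacg), which begins 26 bases before the start of *CLO1* and 35 bases before that of *CLO2*. *OLEO1* and *OLEO3* shared 12 bases ending in an RY core (ttaacaCATGCA), followed in both, after 5 bases, by an RY core on the other strand. The RefSeq start of *OLEO4* lies upstream of the start of its locus in the deposited table, so its window is less certain.

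**Figure D1:**
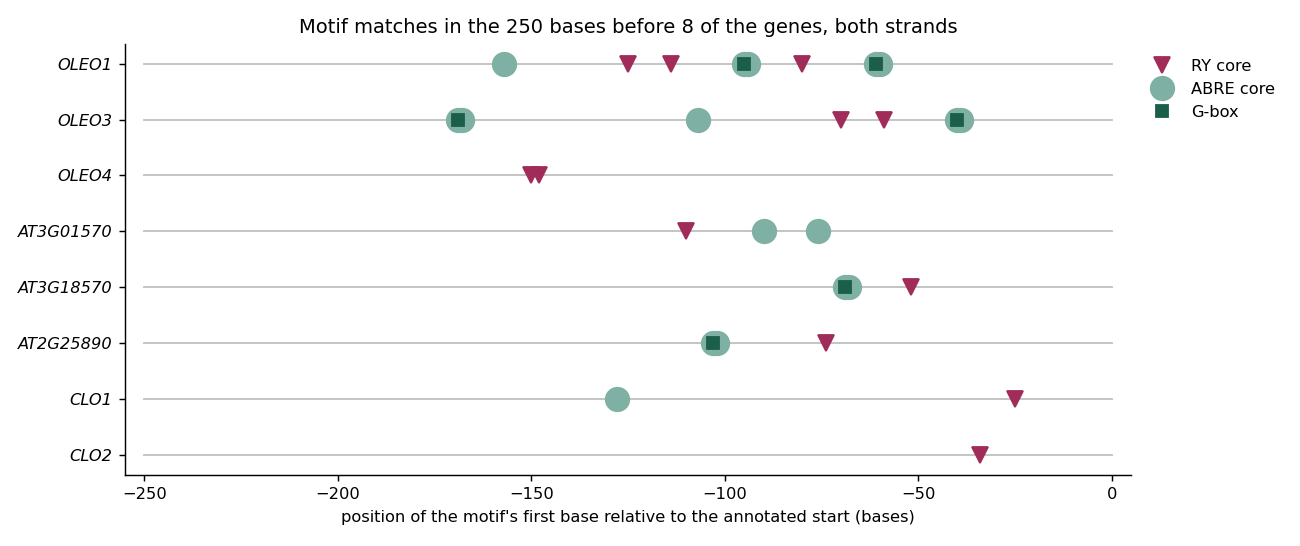
Matches of the RY core, the ABRE core and the G-box on both strands of the 250 bases before the annotated start of 8 genes. The x axis gives the position of a match relative to the start, in bases, and each row is 1 gene. All 8 rows hold an RY core, and the rows of *OLEO4* and *CLO2* hold neither of the other motifs.

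The table as a whole gave the following checks. The FPKM of a group summed to between 882351 and 988764, and the depth in reads is unknown. Each of the 5 DELLA genes had less FPKM in *Δdella* seeds than in their WT counterparts in every condition, the ratio of WT over *Δdella* lying between 1.99 and 42.1. The storage protein gene *CRA1* (cruciferin) reached 5245 FPKM. Of 3 leaf markers over all groups, *RBCS1A* (the small subunit of Rubisco) had 1153 to 1966 FPKM, *LHCB3* 1.25 to 3.03 FPKM and *LHCB2.1* at most 0.257 FPKM. RNA came from whole seeds, in which fewer cells that express a gene and less RNA per cell cannot be told apart. No 50-base stretch of the exons of the 10 genes occurs elsewhere in the genome, so reads of this length are not shared with paralogs. *OLEO1*, *OLEO2* and AT3G01570 overlap a gene on the other strand by 44, 15 and 51 bases. In AT2G25890 all 877 bases of its exon lie within exons of *AUR2* (AT2G25880) on the other strand. The kit kept the strand, but whether the authors' counting used it is not stated. *AUR2* had 3.83 to 4.72 FPKM in *Δdella* and 1.99 to 2.47 FPKM in WT seeds, against 10.4 to 56.3 FPKM for AT2G25890 over all groups, and its part in the values of AT2G25890 was not tested.

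*OLEO1* had the widest range of the 10 genes, 35.0-fold between its highest and lowest group. In *Δdella* seeds it had 9.75 FPKM with PAC + GA, 16.1 FPKM with PAC, 26.0 FPKM with extract + GA, 24.5 FPKM with extract and 10.6 FPKM on MS. In WT seeds the same conditions gave 67.4, 342, 39.6, 218 and 67.7 FPKM, in that order. Every *Δdella* value was thus below every WT value, and WT seeds on PAC stood highest, followed by WT seeds on extract. *OLEO4* had the same separation at lower levels. It had 2.75, 4.85, 5.00, 6.61 and 4.17 FPKM in *Δdella* seeds, with the conditions in the same order (PAC + GA, PAC, extract + GA, extract, MS). In WT seeds it had 11.9, 69.9, 8.08, 48.4 and 19.7 FPKM. *OLEO2* had 10.2, 11.0, 17.8, 27.0 and 12.4 FPKM in *Δdella* seeds. In WT seeds *OLEO2* had 26.0, 128, 20.6, 75.5 and 29.7 FPKM. Here the genotypes overlapped, since *Δdella* seeds on extract lay above WT seeds with PAC + GA and with extract + GA.

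AT3G01570 was the most abundant member in all 5 *Δdella* groups and the second after *OLEO1* in WT seeds on PAC, on extract and on MS. It had 37.7, 37.4, 59.7, 67.0 and 35.0 FPKM in *Δdella* seeds, and 89.3, 254, 73.3, 136 and 58.2 FPKM in WT seeds, again with PAC + GA, PAC, extract + GA, extract and MS. *OLEO3* varied least, 3.28-fold over the 10 groups. It had 8.58, 9.52, 10.7, 12.1 and 7.62 FPKM in *Δdella* seeds, and 15.5, 25.0, 13.6, 12.9 and 9.13 FPKM in WT seeds. Except for WT seeds on PAC, its neighbouring groups in the order of levels lay close together.

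Among the seed and microspore oleosins, AT2G25890 had 11.5, 12.5, 22.5, 27.9 and 10.4 FPKM in *Δdella* seeds, and 16.2, 56.3, 20.9, 29.6 and 12.0 FPKM in WT seeds. The genotypes lay side by side with extract, with extract + GA and on MS, and far apart on PAC. AT1G48990 had 11.8, 13.3, 18.8, 19.3 and 10.6 FPKM in *Δdella* seeds, and 26.8, 49.0, 23.9, 31.3 and 19.7 FPKM in WT seeds, so that every *Δdella* value lay below every WT value by a narrow margin. AT3G18570 was scarce, with 0.943 to 1.34 FPKM in *Δdella* seeds. In WT seeds it had 1.05, 6.09, 0.907, 2.92 and 1.12 FPKM, and only the values on PAC and on extract stood out.

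The caleosins were less abundant than all oleosins but AT3G18570 in WT seeds on PAC. *CLO1* had 3.05, 2.94, 3.27, 3.66 and 2.68 FPKM in *Δdella* seeds, and 5.83, 23.4, 4.24, 18.8 and 5.72 FPKM in WT seeds. *CLO2* had 1.23, 1.92, 3.56, 2.77 and 1.34 FPKM in *Δdella* seeds, and 5.07, 19.4, 3.11, 13.8 and 5.26 FPKM in WT seeds. For both, WT seeds on PAC and on extract lay well above the other 8 groups. All 10 genes had their highest level in WT seeds on PAC.

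**Figure D2:**
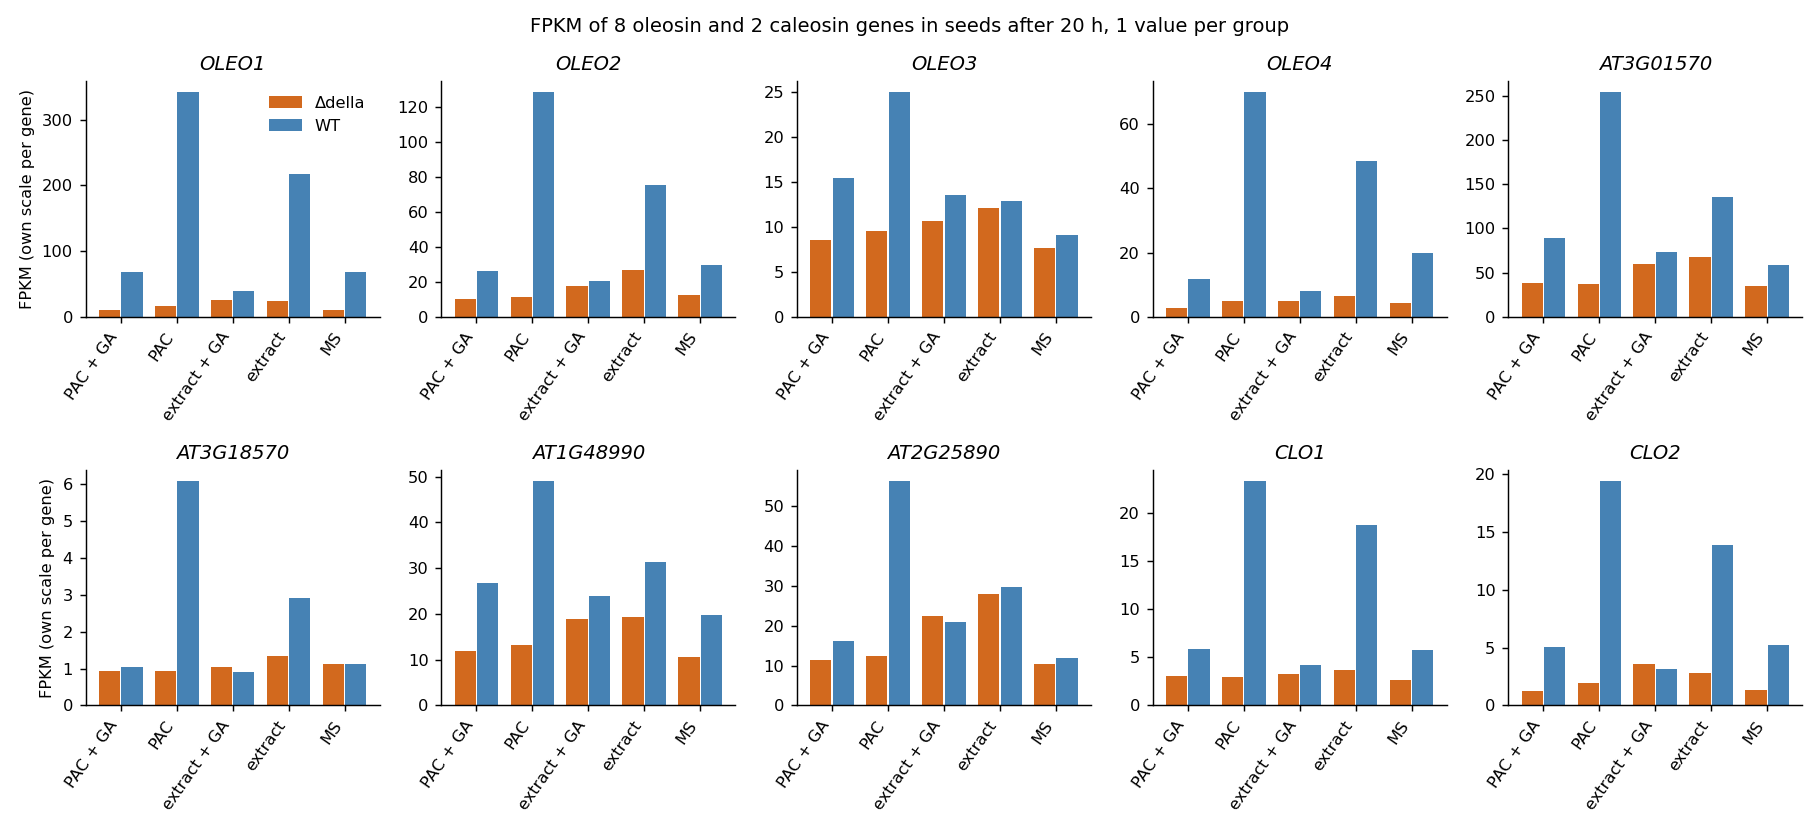
FPKM of the 10 genes in *Δdella* (left bar of a pair) and WT seeds (right bar) with PAC + GA, PAC, extract + GA, extract and on MS. Each bar is 1 pooled value with no error, and each gene has its own y axis from 0. The WT bar on PAC is the tallest in every panel, and in *OLEO3* and AT2G25890 the 2 bars on extract are nearly level.

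The comparison of PAC with MS asks how the genes differ when GA synthesis is blocked, and with what dependence on DELLA factors. In WT seeds 10 of the 10 genes were at least 2-fold higher on PAC, against 3.25% of the 16846 genes compared. Genes were compared where at least 1 of the groups had 1 FPKM, and folds were taken as log2 ratios after adding 1 to each FPKM, which understates the fold of low genes. The members' median log2 fold was 1.82, with a range of 1.28 (AT1G48990) to 2.32 (*OLEO1*), against a median of 0.01 over all genes. *OLEO1* ranked 73rd from the top. In *Δdella* seeds 0 of the 10 were past 2-fold in either direction, against 0.794% of genes, and the members' median was 0.21. The highest value there was that of *OLEO1*, 0.56, and those of *OLEO2* and AT3G18570 lay below 0, at -0.16 and -0.13. The summed FPKM of the 10 genes was 111 on PAC and 96.0 on MS in *Δdella* seeds, against 973 on PAC and 228 on MS in WT seeds.

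Addition of GA asks whether the levels on PAC depend on the missing hormone. In WT seeds 8 of the 10 genes were at least 2-fold lower with PAC + GA than with PAC alone, against 1.96% of genes, with a median of -1.77. The exceptions were *OLEO3* (-0.66) and AT1G48990 (-0.85). Set against MS, 0 of the 10 were past 2-fold with PAC + GA, where 0.974% of genes were, so this count says little. *OLEO1*, *CLO1*, *CLO2* and AT3G18570 had values within 0.05 of 0 on the log2 scale. *OLEO3*, AT3G01570, AT1G48990 and AT2G25890 lay above MS by 0.41 to 0.71, *OLEO4* was at -0.69 and *OLEO2* at -0.18. In *Δdella* seeds PAC + GA against PAC gave 0 past 2-fold of the 9 that passed the filter. As only 0.806% of genes were, this count says little. *OLEO1* (-0.67), *OLEO4* (-0.64) and *CLO2* (-0.39) were lowest, below the 2.5 percentile of all genes (-0.29), and the members' median was -0.13. AT3G18570 was under 1 FPKM in both groups. PAC + GA against MS likewise gave 0 of 10 (0.741% of genes).

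**Figure D3:**
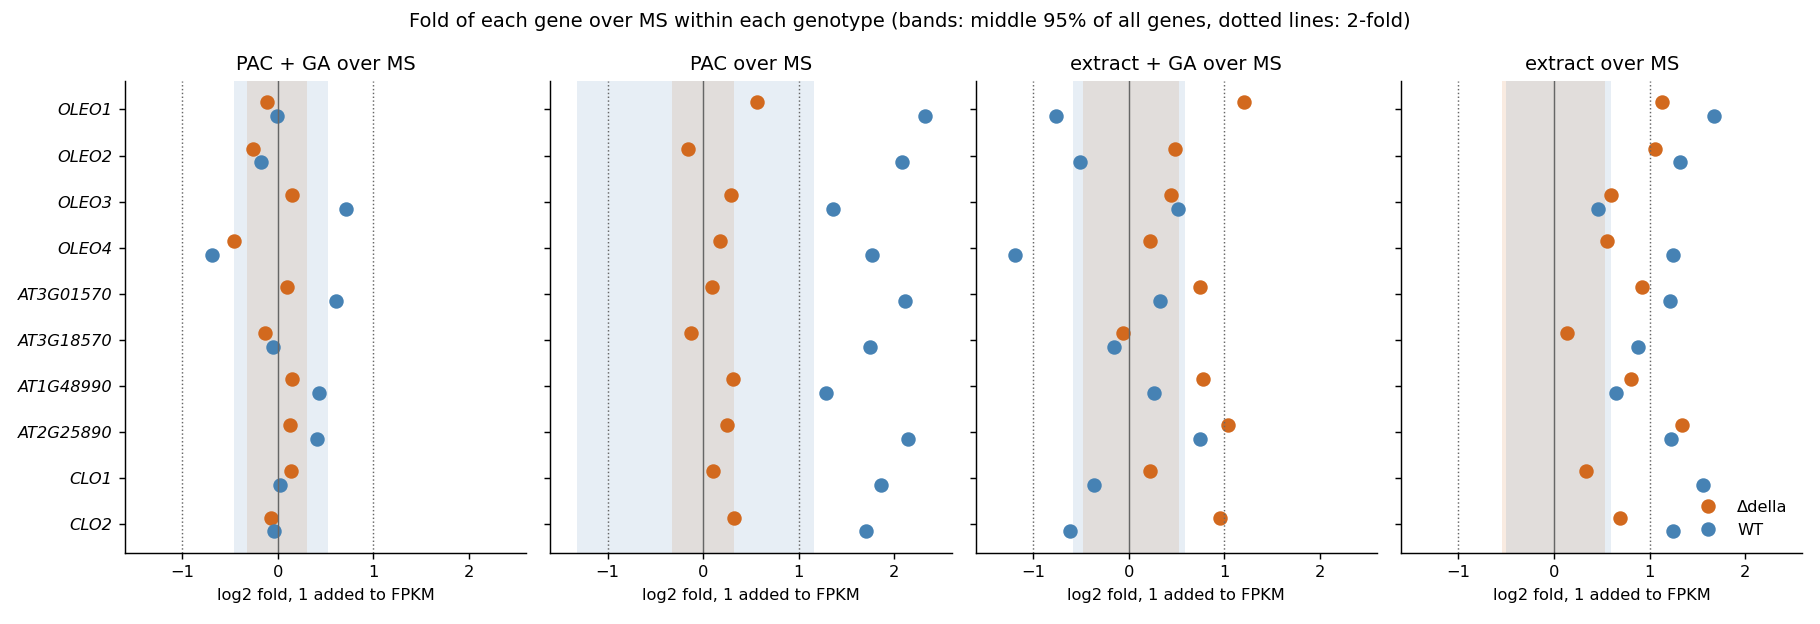
The log2 fold of each gene over MS (x axis, 1 added to FPKM) with PAC + GA, PAC, extract + GA and extract, in *Δdella* (upper point of a row) and WT seeds (lower point). Bands hold the middle 95% of all genes compared in that genotype, and dotted lines mark 2-fold. On PAC the WT points lie at 1.28 to 2.32 and the *Δdella* points at -0.16 to 0.56, whereas on extract the points of the genotypes lie closer together.

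For *PAO1* extract the question is how the genes differ with a bacterial preparation, and again with what dependence on DELLA factors. In WT seeds 7 of the 10 genes were at least 2-fold higher with extract than on MS, against 1.00% of the 16744 genes compared, with a median of 1.24. *OLEO1* (1.67) and *CLO1* (1.56) were highest, ranking 51st and 62nd. AT3G18570 (0.88), AT1G48990 (0.65) and *OLEO3* (0.46) were not past 2-fold. In *Δdella* seeds all 10 genes were also above their MS level, with a median of 0.75. *OLEO1* (1.13), *OLEO2* (1.06) and AT2G25890 (1.34) made up the 3 of 10 past 2-fold, against 0.885% of genes. The difference of the log2 folds, *Δdella* minus WT, was -1.21 for *CLO1*, -0.69 for *OLEO4* and -0.54 for *OLEO1*. It was 0.11 for AT2G25890, 0.15 for *OLEO3* and 0.17 for AT1G48990. On PAC the same difference was -0.97 to -2.23 for all 10 genes. Without replicate values these differences could not be tested. The summed FPKM was 192 with extract and 96.0 on MS in *Δdella* seeds, against 587 with extract and 228 on MS in WT seeds.

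With extract, addition of GA separated the members. In WT seeds 6 of the 10 genes were at least 2-fold lower with extract + GA than with extract, against 0.899% of genes. *OLEO4* (-2.44) and *OLEO1* (-2.43) were lowest, followed by *CLO1* (-1.92), *CLO2* (-1.85), *OLEO2* (-1.83) and AT3G18570 (-1.04). AT3G01570 (-0.88), AT2G25890 (-0.48), AT1G48990 (-0.38) and *OLEO3* (0.06) were not past 2-fold. Against MS, the WT groups being those used above, only *OLEO4* was past 2-fold with extract + GA, and it was lower (-1.19), 1 of 10 against 1.57% of genes in either direction. *OLEO1*, *OLEO2*, *CLO1*, *CLO2* and AT3G18570 also lay below MS, at -0.76 to -0.15, and the remaining 4 genes lay above it, at 0.27 to 0.75.

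**Figure D4:**
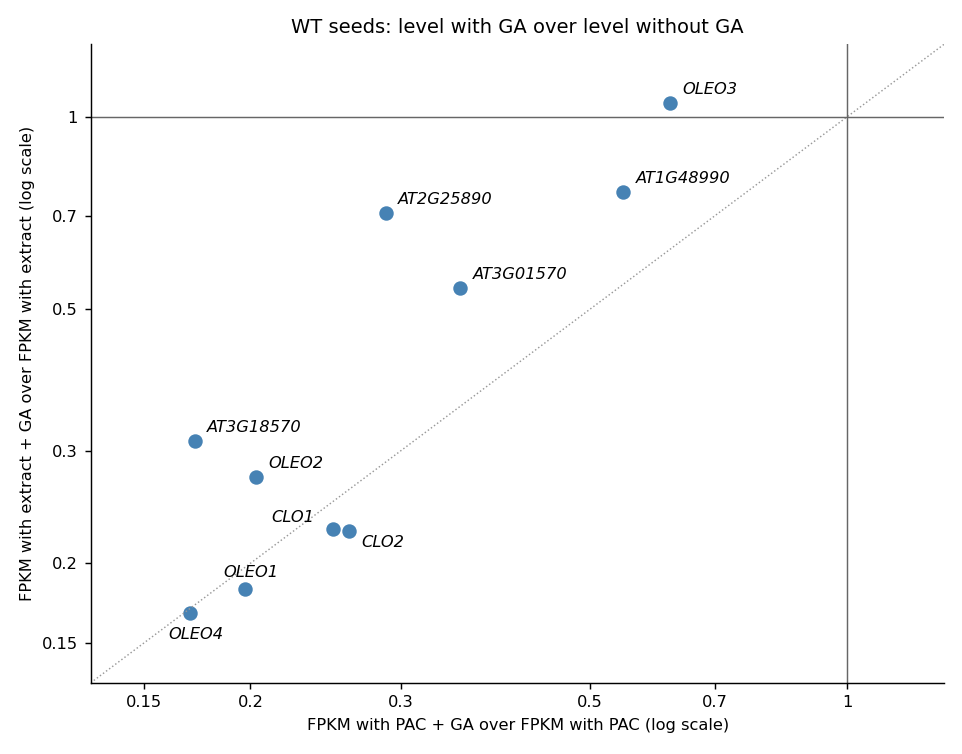
FPKM with GA over FPKM without GA in WT seeds on PAC (x axis) and on extract (y axis), both on log scales. Each point is 1 gene, solid lines mark a ratio of 1 and the dotted line marks equal ratios. *OLEO4* and *OLEO1* lie lowest on both axes among the oleosins of the seed group, at 0.170 and 0.197 on PAC and at 0.167 and 0.182 on extract, and *OLEO3* lies highest at 0.620 and 1.05.

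In *Δdella* seeds extract + GA against extract gave 0 of 10 past 2-fold in either direction. As only 0.789% of genes were, this count says little. Values ran from -0.57 for *OLEO2* to 0.27 for *CLO2*, with 8 of the 10 below 0 and a median of -0.16. *OLEO2*, *OLEO4* (-0.34) and AT2G25890 (-0.30) lay below the 2.5 percentile of all genes (-0.27). Relative to MS, *OLEO1* (1.21) and AT2G25890 (1.04) were at least 2-fold higher with extract + GA, 2 of 10 against 1.02% of genes, and the median was 0.62. With extract and GA together, *OLEO1* was thus higher than on MS in *Δdella* seeds, 26.0 against 10.6 FPKM. In WT seeds it was lower, 39.6 against 67.7 FPKM. This comparison alone cannot tell extract and GA apart. With extract and no GA, *OLEO1* had 24.5 FPKM in *Δdella* and 218 FPKM in WT seeds. No group had GA alone, so levels with GA and no extract or PAC are unknown.

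The spread of these ratios can be read beside the windows shown above, a reading chosen after the values were seen. The 2 genes with no ABRE core in the window had extract + GA over extract ratios in WT seeds of 0.167 (*OLEO4*, whose window is the less certain one) and 0.225 (*CLO2*). The 2 with an ABRE core and no G-box had 0.226 (*CLO1*) and 0.539 (AT3G01570). The 4 genes with a G-box covered a wide range, with 0.182 for *OLEO1*, 0.311 for AT3G18570, 0.708 for AT2G25890 and 1.05 for *OLEO3*. *OLEO1* and *OLEO3*, whose windows had 5 ABRE matches and 2 G-boxes each, stood at opposite ends of these 4. Whether the motifs have a part in these ratios was not tested.

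Comparison of genotypes under the same condition gave lower levels in *Δdella* seeds for most genes. On PAC 10 of the 10 genes were at least 2-fold lower in *Δdella* than in WT seeds, against 6.00% of genes, with a median of -2.68. The range ran from -1.31 for *OLEO3* to -4.32 for *OLEO1*. With extract 6 of 10 were lower (2.28% of genes), led by *OLEO1* (-3.10), *OLEO4* (-2.70) and *CLO1* (-2.08), while AT2G25890 (-0.08) and *OLEO3* (-0.09) were near 0. With PAC + GA 6 of 10 were lower (2.58% of genes), *OLEO1* (-2.67) again being the lowest. On MS, with no addition, 4 of 10 were lower (1.87% of genes), namely *OLEO1* (-2.56), *OLEO4* (-2.00), *CLO2* (-1.42) and *OLEO2* (-1.19). With extract + GA 0 of 10 were at least 2-fold lower (1.03% of genes), a count that says little. The values ran from -0.60 (*OLEO4*) to 0.15 (*CLO2*). These comparisons use the same groups as those above.

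The make-up of the oleosin and caleosin transcripts differed between genotypes. *OLEO1* made up 10.0% to 15.4% of the summed FPKM of the 10 genes in *Δdella* seeds, and 19.0% to 37.1% in WT seeds. AT3G01570 made up 33.8% to 38.7% in *Δdella* and 23.2% to 35.2% in WT seeds. The 3 seed and microspore oleosins together held 25.2% in *Δdella* seeds and 10.9% in WT seeds on extract, and 23.0% in *Δdella* seeds and 14.4% in WT seeds on MS. In WT seeds with extract + GA their share was 22.0%, the nearest of the WT groups to the *Δdella* shares. The 2 caleosins kept a small share, 3.35% to 5.55% over all groups. In relation to all transcripts the 10 genes were minor at this time, with 0.0104% of the FPKM of all genes in *Δdella* seeds with PAC + GA and 0.110% in WT seeds on PAC.

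**Figure D5:**
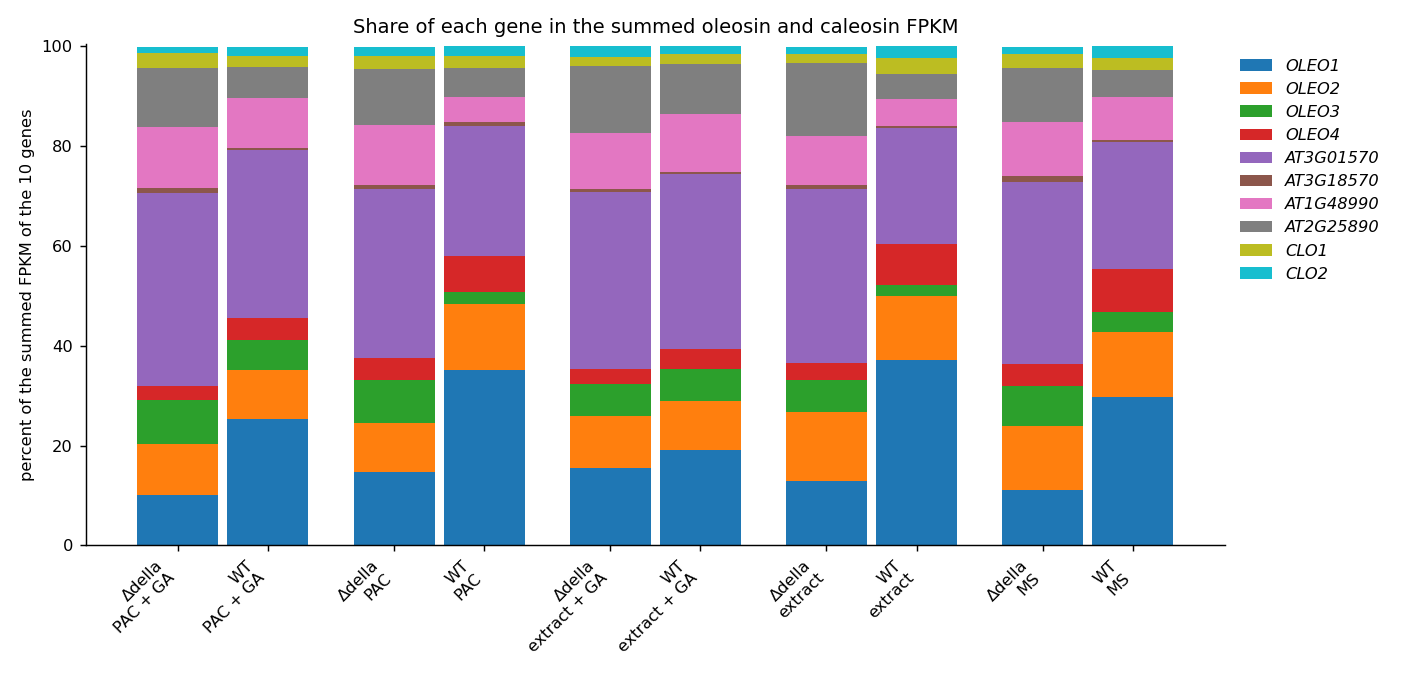
Share of each gene in the summed FPKM of the 10 genes (y axis, percent), with *Δdella* left of WT in each condition. The *OLEO1* share is 37.1% in WT seeds on extract, 35.1% in WT seeds on PAC and at most 15.4% in *Δdella* seeds.

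Other oil body and oil synthesis genes were taken from lists of the families and pathways. Of all genes, 3.25% were at least 2-fold higher on PAC and 1.00% with extract in WT seeds. In *Δdella* seeds 0.885% were with extract. Beside such shares, counts of 0 or 1 in lists this short say little. The caleosins *CLO3*, *CLO5*, *CLO6* and *CLO7* were under 1 FPKM in every group, as were all 6 tapetal oleosins of pollen. *CLO4* had 2.55 to 2.95 FPKM in *Δdella* and 0.222 to 0.778 FPKM in WT seeds. Of 7 steroleosins, the sterol dehydrogenases of oil bodies, 4 passed the filter of 1 FPKM and 1 was at least 2-fold higher on PAC in WT seeds. This was *HSD5*, with 80.7 FPKM on PAC and 33.6 FPKM on MS. The near-identical *HSD1a* and *HSD1b* were listed at 0 in every group, where shared reads may not have been assigned. Of 9 genes of lipid droplet assembly and turnover, 0 passed 2-fold on PAC in WT seeds. *LDAP2*, a coat protein of lipid droplets best known from vegetative tissues, had 743 FPKM in *Δdella* and 233 FPKM in WT seeds on PAC, the opposite order to the oleosins. With extract 1 of the 9 was higher in each genotype, *SEIPIN1*, which acts in droplet formation. It had 4.81 FPKM with extract and 1.35 FPKM on MS in *Δdella* seeds, and 3.53 and 1.02 FPKM in WT seeds. *SEIPIN1* was named after its values were seen.

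Of 8 genes of triacylglycerol assembly, 7 passed the filter and 1 was at least 2-fold higher on PAC in WT seeds, against 3.25% of all genes. It was *WRI1*, the regulator of fatty acid synthesis, at 4.03 FPKM against 0.923 FPKM on MS, named after its values were seen. As *WRI1* passed the filter only through its value on PAC, this count says little. The desaturase genes *FAD2* and *FAD3* were abundant at 503 and 707 FPKM on PAC, against 468 and 466 FPKM on MS. Of the seed maturation regulators, 4 passed the filter in the comparison of PAC with MS in WT seeds. On PAC 2 of these were at least 2-fold higher, against 3.25% of all genes. They were *EEL*, a bZIP factor, with 19.0 FPKM on PAC and 4.62 FPKM on MS, and *FUS3*, a B3-domain factor. *FUS3*, named after its values were seen, had 1.28 FPKM on PAC and 0.1295 FPKM on MS. It passed the filter only through its value on PAC, so the count of 2 rests in part on that filter. *ABI5*, a bZIP factor of ABA signaling, was just short of 2-fold (0.99), with 70.4 FPKM on PAC and 35.0 FPKM on MS. *ABI3*, also a B3-domain factor, had 218 FPKM on PAC and 122 FPKM on MS (0.84). In *Δdella* seeds *ABI3* had 83.7 FPKM on PAC and 84.6 FPKM on MS. With extract 3 regulators passed the filter in each genotype and 0 of the 3 passed 2-fold. The shares of all genes at least 2-fold higher were 0.885% in *Δdella* and 1.00% in WT seeds. *ABI3* had 79.8 FPKM with extract and 84.6 FPKM on MS in *Δdella* seeds, and 118 and 122 FPKM in WT seeds.

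Seed markers, most of them storage protein and late embryogenesis genes, were higher with the members in WT seeds, and only in part in *Δdella* seeds. In WT seeds 7 of 7 seed markers were at least 2-fold higher on PAC than on MS, against 3.25% of all genes. With extract 5 of 7 were, against 1.00%. The exceptions with extract were the albumin genes *SESA1* (0.26) and *SESA2* (0.77). In *Δdella* seeds 0 of 7 passed 2-fold on PAC, against 0.794% of genes in either direction, so this count says little. Their median log2 fold there was 0.07. With extract 3 of 7 were at least 2-fold higher in *Δdella* seeds, against 0.885% of genes, namely *EM1* (1.13), *PER1* (1.28) and *EM6* (34.2 FPKM with extract and 11.5 FPKM on MS), while *CRA1* had 0.95, *CRU3* -0.01, *SESA1* -0.43 and *SESA2* -0.16. Their summed FPKM was 77.9 to 179.9 in *Δdella* groups and 392 to 8547 in WT groups. Of 3 endosperm markers in WT seeds, *EXPA2* had 338 FPKM on PAC and 1579 FPKM on MS (-2.22), and *MAN7* 20.8 and 60.6 FPKM (-1.50). The third, *EPR1*, went the other way, with 1201 and 932 FPKM (0.37). The 2.5 percentile of all genes in this comparison was -1.32. On PAC *EPR1* was lower in *Δdella* than in WT seeds (-1.64), whereas *EXPA2* (2.08) and *MAN7* (1.92) were higher. The summed endosperm markers stood at 1835 to 2226 FPKM in *Δdella* and 1560 to 3230 FPKM in WT groups, and none of the 3 was at 0. Their part in the oleosin and caleosin values was not tested. Of 4 control genes *PP2A*, *PP2AA3* and *UBC21* had 26.0 to 32.5, 36.7 to 42.8 and 35.8 to 45.4 FPKM over all groups. The fourth, *ACT2*, was at least 2-fold higher in *Δdella* than in WT seeds on PAC (171 and 76.0 FPKM) and on extract (176 and 85.5 FPKM), and its log2 ratio of PAC over MS in WT seeds was -0.43.

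The members' own profiles were alike to differing degrees. Over the 10 groups the Pearson correlation between 2 members had a median of 0.91 over 45 pairs and ranged from 0.71 to 0.99. Of the 9 members that reached 10 FPKM in some group, *CLO2* (0.989), *OLEO2* (0.987) and *OLEO1* (0.986) were nearest to the mean profile of the 9, and *OLEO3* (0.858) and AT2G25890 (0.845) farthest. Among 11356 genes with at least 10 FPKM in some group, the 5 nearest to this mean that are not members were AT2G33830 (0.993), AT1G27990 (0.991), AT2G28490 (0.991), AT5G01300 (0.991) and *RAB18* (0.99). AT2G33830 is annotated as a dormancy and auxin associated family protein, AT2G28490 as a cupin and AT5G01300 as a phosphatidylethanolamine-binding family protein. AT1G27990 is uncharacterized, and *RAB18* (AT5G66400) is a dehydrin that ABA induces. *RAB18* had 38.6 FPKM on PAC and 35.0 FPKM on MS in *Δdella* seeds, and 517 and 121 FPKM in WT seeds. These correlations are over 10 pooled groups of 1 experiment, on log2 values, and 92 genes besides the members reached 0.95.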

How the data were processed

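RNA from *Δdella* and WT seeds, 2 genotypes in 5 conditions with 2 biological replicates each, was sequenced by the authors as single-end 50 bp reads, mapped to TAIR10 with TopHat and quantified with Cuffdiff on Galaxy with replicates pooled. The submitters' processing notes name bcl2fastq, Cuffdiff and TAIR10. Neither versions nor the annotation release or normalization were stated in what was read. In the authors' deposited table the unit is FPKM, 1 value per gene and group, identical in all 9 listings of a group. Its columns of the authors' fold changes, test statistics, p-values and q-values were not used. Depth in reads and the spread between replicates are unknown, and no test was made.

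Samples were grouped by title and treatment. For each of 17 comparisons log2 ratios were taken with 1 added to FPKM, over genes with 1 FPKM or more in either group, and a gene was counted past 2-fold. Shares of all genes counted the same way stand beside. The functions were tested on simulated data. Alternatives were a pseudocount of 0.1 or none, no filter or one of 10 FPKM, 2 scalings, and thresholds of 1.5-fold and 3-fold. All 10 members were named, with up to 8 genes of each other list (the 4 with the highest mean, and 4 more past 2-fold at 10 FPKM or more) and the 5 genes of nearest profile. Genes named outside this rule are either marked as such or were listed at or near 0. The members and lists were chosen with earlier results of these data known. Of the table's identifiers, 32810 of 33557 matched a RefSeq TAIR10.1 locus tag, and all 10 members did. Promoter windows and positions are from that annotation, and the windows of 2 members are not reported here. Computations used Python 3.11.15 with numpy 2.4.6 and pandas 2.3.3, and figures matplotlib 3.10.9.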

Additional observations from a re-analysis of the deposited data

How the results depend on the processing

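No paired analysis was possible because the table holds 1 pooled value per group, and for the same reason no replicate could be left out. Of 136 counts and 136 medians recomputed under 8 alternatives in 17 comparisons, 122 counts stayed within 1.5 times and 135 medians stayed on the same side of 2-fold. The counts that moved did so with the fold threshold, apart from that for extract + GA against MS in *Δdella* seeds, which was 1 when the groups were scaled to an equal sum. The shares of all genes at 1.5-fold and 3-fold are not given here. The counts at these thresholds therefore show only how the number of members moved. At 1.5-fold the count was 3 for PAC + GA against MS and 4 for extract + GA against MS in WT seeds. In *Δdella* seeds it was 7 for extract against MS, 5 for extract + GA against MS and 2 for PAC + GA against PAC. Between *Δdella* and WT seeds it was 7 on MS and 2 with extract + GA. At 3-fold the count was 1 for extract and 0 for extract + GA against MS in WT seeds, and 0 for both in *Δdella* seeds. Between genotypes it was 2 on MS and 2 with PAC + GA. With at least 10 FPKM in either group, the members' median for *Δdella* against WT seeds on MS was -1.02. AT3G01570 on extract, *Δdella* against WT, moved to -0.98 with median-of-ratios scaling, *OLEO2* on extract in *Δdella* seeds to 0.94 and AT2G25890 with extract + GA in *Δdella* seeds to 0.96 with scaling to an equal sum. No direction of a gene past 2-fold reversed under any of the 8 alternatives. Depth in reads is unknown, so the precision of low values such as those of AT3G18570 cannot be given.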
